A study of Mus musculus with 24 samples.

Results

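The transcriptome of mouse melanoma cells that had lost TFEB on top of MITF was compared with that of cells that had lost MITF alone, over all 12010 genes of the deposited table. The comparison used 6 of the 24 libraries, 3 of the MITF/TFEB double knockout, written DKO where it stands alone, and 3 of the MITF knockout (KO). All lines derive from B16-F10-luc2, a mouse melanoma line with a luciferase reporter. The series also holds the parental cells, the TFEB KO, the TFE3 KO, the TFEB/TFE3 DKO, the MITF/TFE3 DKO and the triple KO (TKO), each with 3 libraries of 3′-end RNA-seq.

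MITF, TFEB and TFE3 are related basic helix-loop-helix leucine zipper transcription factors that bind E-box sequences as dimers. MITF is the lineage factor of melanocytes and drives the genes of melanin synthesis, whereas TFEB and TFE3 are best known for the genes of lysosomes and autophagy, and mTORC1 at the lysosome keeps them in the cytoplasm when nutrients are plentiful. Of these 3 proteins the MITF KO was left with TFEB and TFE3, and the DKO with TFE3.

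Both lines carry the same MITF mutation, a frameshift, and the DKO was made by targeting Tfeb in the MITF KO line and growing a clone from an isolated cell. Whether the MITF KO line is itself 1 clone is not given in the sources used here. The DKO is 1 clone, and an effect of TFEB loss cannot be told apart from other features of that clone. The frameshift may leave a shortened MITF protein in both lines. No source used here says that the 3 libraries of a line came from separate cultures, so the p-values measure the spread between these libraries, which may be technical. The libraries of the series held 18300902 to 26667877 reads on genes. The 3 MITF/TFEB DKO libraries differed among themselves by more than the sampling of reads, with replicate 1 farthest from the others (chi-square per degree of freedom 26.0 and 39.2, against 10.6 between replicates 2 and 3), and the MITF KO libraries gave 5.93 to 15.8.

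The guide that targeted Tfeb matches exon 3 of the canonical transcript, within coding sequence in 22 of its 30 coding transcripts. It is shown because it defines the line, with the adjacent PAM in capitals (GRCm39, chr17:48097370-48097389, plus strand).
Tfeb guide: tggacacgtactgtccacctCGG
The libraries were primed at the 3′ end of transcripts and do not read this exon, so the RNA level is no check of the edit, and the same holds for the MITF frameshift.

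Tfeb RNA measured 15.5, 22.7 and 16.8 CPM in MITF KO libraries and 3.06, 2.64 and 3.86 CPM in DKO libraries. The groups did not overlap and Tfeb fell (log2 fold change -2.20 ± 0.18 (SE), adjusted p = 6.9e-10). Mitf RNA, which the frameshift leaves readable, measured 1364, 1470.5 and 1358 CPM in MITF KO libraries and 603, 544 and 594 CPM in DKO libraries. It fell as well (log2 fold change -1.27 ± 0.09 (SE), adjusted p = 1.3e-10), from a level in the MITF KO that was above the 763, 768 and 797 CPM of parental cells. Tfe3 measured 51.3, 54.2 and 49.5 CPM in MITF KO libraries and 56.3, 62.5 and 50.3 CPM in DKO libraries, and its libraries overlapped between the lines (adjusted p = 0.56). Tfec, the fourth member of the family, is not among the 12010 genes.

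On loss of TFEB, 830 genes rose and 479 fell, which is 6.91% and 3.99% of the genes tested. A call needed a 2-fold difference or more together with p under 0.05 before adjustment, from limma on log2(CPM + 1), and 824 and 479 of these genes also had an adjusted p under 0.05 (Benjamini-Hochberg). The unit is the deposited edgeR-normalised CPM, a read count scaled to library size. edgeR on the recovered reads called 1137 genes higher and 737 lower (9.47% and 6.14%) and included every one of the limma calls. Of the called genes 232 rose over 4-fold and 60 fell over 4-fold. The median log2 fold change of all genes was 0.02, against which the median of each gene list can be read. Among the genes that rose, 70 had at most 3 reads in every MITF KO library, and such genes are given here by level, with no fitted fold change.

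Among the gene lists examined, the interferon response held the most genes that rose. Type I interferon binds a receptor of paired chains, whose kinases JAK1 and TYK2 activate factors such as STAT2, which acts with IRF9 to switch on antiviral genes. Of 82 measured members of the interferon list, 62 rose and 1 fell, with a median log2 fold change of 2.72 against 0.02 for all genes. These are 75.6% and 1.22% of the list, against 6.91% and 3.99% of all genes. With the 8 members that were at or under 3 reads in each MITF KO library set to the bound those reads allow, the median was 2.94. In 71 of the 82, every DKO library was above every MITF KO library, as in 29.4% of all genes. The 1 member that fell was Procr, the endothelial protein C receptor, a gene chosen after its values were seen, with 21.4, 26.4 and 27.3 CPM in MITF KO libraries and 6.43, 8.90 and 10.2 CPM in DKO libraries.

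The receptor and the kinases did not pass the 2-fold threshold. Ifnar1, a chain of the type I receptor, measured 18.6, 17.6 and 19.7 CPM in MITF KO libraries and 22.0, 25.8 and 25.7 CPM in DKO libraries. Ifnar2, the other chain, measured 38.7, 40.8 and 43.5 CPM in MITF KO libraries and 64.6, 67.0 and 67.3 CPM in DKO libraries (log2 fold change 0.68, adjusted p = 4.4e-07). Jak1 measured 341, 354 and 340.0 CPM in MITF KO libraries and 356, 357 and 326 CPM in DKO libraries, and Tyk2 21.5, 19.5 and 15.1 CPM in MITF KO libraries and 19.6, 18.3 and 17.2 CPM in DKO libraries. The libraries of the lines overlapped for both kinases, while the 2 receptor chains were higher in every DKO library. Jak2, the kinase of the interferon gamma receptor, had a log2 fold change of -0.75 (adjusted p = 0.00019), and of the 4 receptor genes and 3 kinases none was called.

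Of 9 STAT and IRF factors below the kinases, 6 rose (66.7%, against 6.91% of all genes) and none fell. Stat2 measured 5.37, 4.90 and 4.90 CPM in MITF KO libraries and 76.7, 70.6 and 70.7 CPM in DKO libraries (log2 fold change 3.60 ± 0.10 (SE), adjusted p = 1e-18), and Irf9 measured 5.60, 5.54 and 4.47 CPM in MITF KO libraries and 237, 203 and 199 CPM in DKO libraries (log2 fold change 5.11 ± 0.11 (SE), adjusted p = 8e-21). For both factors the lowest DKO library lay over 10 times above the highest MITF KO library. Irf1, Irf2 and Stat3 rose less, with log2 fold changes of 1.51, 1.19 and 1.38. Irf3, which is activated by phosphorylation downstream of nucleic acid sensors, measured 37.8, 45.2 and 43.6 CPM in MITF KO libraries and 41.4, 46.8 and 40.5 CPM in DKO libraries and overlapped between the lines. Irf7, usually an interferon-induced amplifier, stayed scarce, with no read in any MITF KO library and 0.157, 0.798 and 0.199 CPM in the DKO.

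Sensors of RNA rose while their adaptors did not pass the threshold. Ifih1, which encodes the double-stranded RNA sensor MDA5, measured 3.11, 1.20 and 1.91 CPM in MITF KO libraries and 64.9, 53.2 and 57.6 CPM in DKO libraries, and Ddx58, which encodes RIG-I, measured 9.74, 7.59 and 10.5 CPM in MITF KO libraries and 233, 211 and 218 CPM in DKO libraries. Zbp1, a sensor of left-handed nucleic acid, had no read in any MITF KO library and 25.7, 28.3 and 28.8 CPM in the DKO, at least 195-fold higher by a limit of 3 reads per MITF KO library. Mavs, the adaptor of the RNA sensors, had a log2 fold change of 0.39 and Sting1, the adaptor of the DNA sensor, 0.10 (adjusted p = 0.0084 and 0.61). Cgas, the DNA sensor itself, rose by a log2 fold change of 1.12. In all, 7 of 11 sensors and adaptors rose and none fell.

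The antiviral effectors had a median log2 fold change of 4.89. Isg15, a ubiquitin-like modifier, measured 6.07, 5.10 and 4.74 CPM in MITF KO libraries and 527, 799 and 899.9 CPM in DKO libraries (log2 fold change 6.85 ± 0.26 (SE), adjusted p = 3.1e-16). Usp18, which removes ISG15 and damps receptor signalling, measured 0.471, 0.602 and 0.981 CPM in MITF KO libraries and 292, 272 and 256 CPM in DKO libraries (log2 fold change 7.36 ± 0.12 (SE), adjusted p = 3.1e-23). Ifit3, which binds IFIT1 on foreign RNA, measured 8.85, 8.84 and 9.21 CPM in MITF KO libraries and 701, 714 and 722 CPM in DKO libraries (log2 fold change 6.16 ± 0.08 (SE), adjusted p = 1.5e-24), and its reads may be split with the near-identical Ifit3b. The scale log2(CPM + 1) understates such changes, because the added 1 is then large beside the MITF KO values. Ifi44 had no read in any MITF KO library and 148, 169.6 and 167 CPM in the DKO, at least 1139-fold higher by the same limit. Of 19 antiviral effectors, 17 rose. The exceptions were Ifitm2, which overlapped between the lines, and Ifit2, which measured 18.3, 20.2 and 15.4 CPM in MITF KO libraries and 12.9, 7.56 and 11.1 CPM in DKO libraries (log2 fold change -0.74, adjusted p = 0.00038), lower in every DKO library. It lies in the same gene cluster as Ifit3 on chromosome 19.

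Families of clustered paralogs rose together, and reads may be shared within each. All 4 measured genes of the HIN-200 family, DNA-binding proteins encoded on chromosome 1, rose. Among them Mndal measured 1.04, 0.643 and 0 CPM in MITF KO libraries and 517, 469 and 491 CPM in DKO libraries. Ifi203 measured 0.471, 0.843 and 0.436 CPM in MITF KO libraries and 499, 504 and 537 CPM in DKO libraries. The immunity-related GTPase Igtp measured 0.235, 0.241 and 0.327 CPM in MITF KO libraries and 186, 196 and 177 CPM in DKO libraries, and 11 of 12 GTPases of the guanylate-binding and immunity-related families rose. Apol9a and Apol9b, interferon-induced genes of the apolipoprotein L family, stood at 0.141, 0.0402 and 0.109 and 0, 0.482 and 0.163 CPM in the MITF KO and at 257, 226 and 206 and 393, 344 and 305 CPM in the DKO. Ifi27l2a, whose product has been placed in mitochondria and the nuclear envelope, measured 0, 0.0402 and 0.381 CPM in MITF KO libraries and 125, 137 and 118 CPM in DKO libraries (parental cells 1.47, 0.909 and 0.809 CPM). Its DKO libraries thus lay above those of both other lines. Genes of antigen presentation rose as well, 9 of 10 class I genes, from B2m, the light chain, with 1075, 1072 and 1019.6 CPM in MITF KO libraries and 3537, 4067 and 3467 CPM in DKO libraries, to the heavy chain H2-D1 with 17.3, 17.0 and 24.5 CPM in MITF KO libraries and 443, 599 and 614 CPM in DKO libraries.

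**Figure D1:**
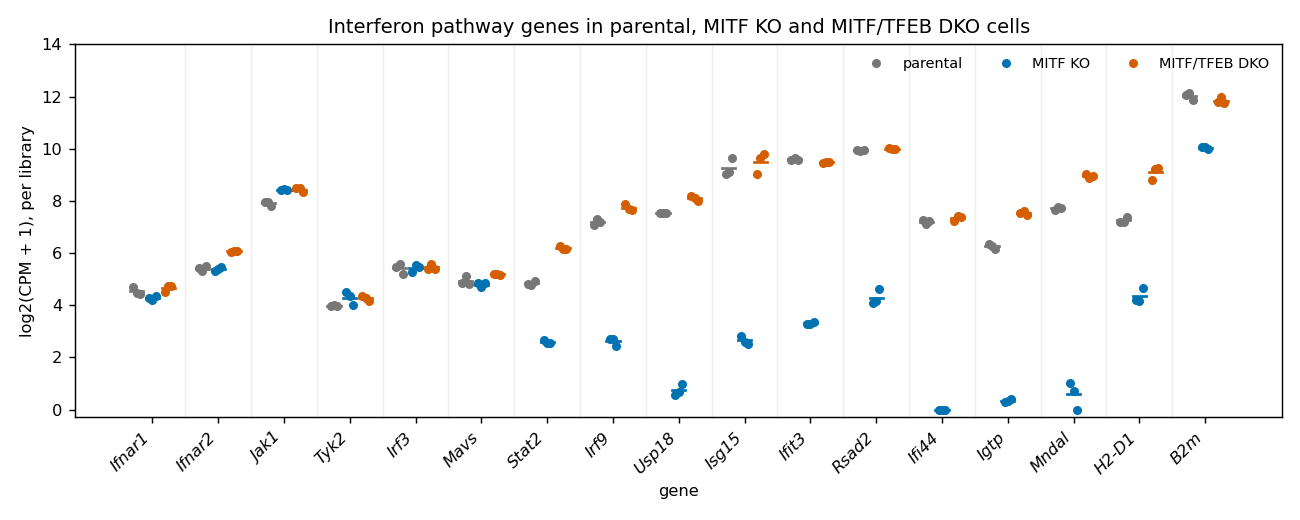
Interferon pathway genes as log2(CPM + 1), a point per library and a bar at the mean of 3 libraries, in parental, MITF KO and MITF/TFEB DKO cells. Receptor, kinase and adaptor genes at the left lie close together in the 3 lines, and from Stat2 rightward the MITF KO lies below the others.

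Set beside parental cells, more interferon genes were called different in the MITF KO than in the DKO. In the MITF KO, 59 of the 82 members were called lower than in parental cells and 2 higher, and in the DKO 3 were called lower and 13 higher. Both contrasts use the same parental libraries, and over all genes they called 2.99% lower and 3.29% higher in the MITF KO, and 4.94% and 8.78% in the DKO. Isg15 averaged 629 ± 153 CPM in parental cells and 5.30 ± 0.689 CPM in the MITF KO (SD, n = 3). It averaged 742 ± 193 CPM in the DKO, with 668 ± 174 CPM in MITF/TFE3 DKO cells and in TKO cells 37.6 ± 1.92 CPM. The summed level of the list ran from 2539.7 to 2598 CPM in the MITF KO libraries, from 17227 to 18017 CPM in the DKO libraries and from 15524 to 16198 CPM in parental cells. Interferon itself was not measured here, and in bulk RNA fewer responding cells and less RNA per cell cannot be told apart.

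The promoters of 3 strongly raised genes are shown because they carry the interferon-stimulated response element, GAAA, any 2 bases and GAAA again on either strand, in capitals (GENCODE vM39 starts on GRCm39, the 250 bases before the start, 5′ to 3′ on the strand of the gene).
Isg15, chr4:156285304-156285553, minus strand: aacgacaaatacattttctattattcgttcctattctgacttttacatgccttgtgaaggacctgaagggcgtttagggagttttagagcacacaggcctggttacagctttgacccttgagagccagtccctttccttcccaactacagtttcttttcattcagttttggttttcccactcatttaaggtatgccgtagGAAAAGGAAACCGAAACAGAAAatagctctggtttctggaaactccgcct
Usp18, chr6:121222607-121222856, plus strand: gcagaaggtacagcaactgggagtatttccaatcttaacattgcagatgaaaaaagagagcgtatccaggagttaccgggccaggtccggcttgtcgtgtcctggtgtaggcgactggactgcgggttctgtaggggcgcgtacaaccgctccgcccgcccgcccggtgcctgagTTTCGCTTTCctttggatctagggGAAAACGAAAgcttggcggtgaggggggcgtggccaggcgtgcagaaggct
Ifit3, chr19:34560649-34560898, plus strand: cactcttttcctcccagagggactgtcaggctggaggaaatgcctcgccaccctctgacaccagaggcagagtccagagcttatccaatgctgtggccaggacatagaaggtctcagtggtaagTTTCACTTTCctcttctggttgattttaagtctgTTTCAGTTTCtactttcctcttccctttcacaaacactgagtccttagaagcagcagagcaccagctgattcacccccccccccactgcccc
The 3 matches of Isg15 overlap into 1 run. Over all genes with such a window, 2.93% held the motif (342 of 11662), compared with 8.52% of genes that rose and 1.75% of genes that fell. It was in 15 of 61 interferon-list genes that rose and in 2 of 19 of those not called. A match describes letters and was not tested as a binding site.

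Part of the pigmentation genes fell. Melanocytes make melanin in the melanosome, where tyrosinase starts the synthesis and TYRP1 and DCT act after it on a fibrillar matrix of PMEL, while MC1R at the surface receives the melanocortin signal. Of 37 measured genes of melanin synthesis and the melanosome, 13 fell and 1 rose, with a median log2 fold change of -0.70. The 1 that rose was Rab32, a small GTPase that carries melanosomal cargo, chosen after its values were seen, with 18.0, 14.9 and 18.0 CPM in MITF KO libraries and 28.0, 38.2 and 43.0 CPM in DKO libraries.

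Tyr measured 102, 118 and 113 CPM in MITF KO libraries and 12.5, 11.8 and 14.1 CPM in DKO libraries (log2 fold change -3.02 ± 0.15 (SE), adjusted p = 3.7e-14). Tyrp1 measured 3834, 3400.4 and 4145 CPM in MITF KO libraries and 1134, 1359 and 1357 CPM in DKO libraries (log2 fold change -1.56 ± 0.10 (SE), adjusted p = 7.2e-12), and Mc1r 357, 380.2 and 379.8 CPM in MITF KO libraries and 83.6, 91.1 and 92.2 CPM in DKO libraries (log2 fold change -2.05 ± 0.09 (SE), adjusted p = 4.4e-15). Every library of the DKO was below every MITF KO library for the 3 genes. Pmel fell by 1.91 on the log2 scale, Slc45a2, a melanosomal transporter, by 2.51, Tspan10 by 2.99 and the cation channel gene Trpm1 by 1.78. Dct, the most abundant of the enzymes, measured 28565, 29029 and 29472 CPM in MITF KO libraries and 13265, 15004 and 15385 CPM in DKO libraries. Its log2 fold change of -0.999 lay just short of the 2-fold threshold (adjusted p = 1.3e-07), and Mlana, a melanosome matrix-associated protein, reached -0.97. Rab38, the partner of Rab32, measured 303, 205 and 311 CPM in MITF KO libraries and 193, 332 and 419 CPM in DKO libraries and overlapped between the lines. Rab27a, which carries melanosomes to the cell edge, and the ion exchangers Slc24a5 and Slc24a4 fell by 1.74, 1.61 and 1.98 on the log2 scale. The melanosome biogenesis complexes made up most of the 23 members that were not called.

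Fewer of these genes were called lower after loss of MITF alone. Against parental cells, 3 of the 37 were called lower in the MITF KO and 16 in the DKO, compared with 2.99% and 4.94% of all genes. Tyr averaged 131 ± 4.13 CPM in parental cells (SD, n = 3), 111 ± 8.50 in the MITF KO and 12.8 ± 1.16 in the DKO. Promoters of 3 of the genes that fell are shown because they hold TCATGTG, the M-box core recognised by MITF-family proteins, in capitals (same windows and build).
Tyr, chr7:87142721-87142970, minus strand: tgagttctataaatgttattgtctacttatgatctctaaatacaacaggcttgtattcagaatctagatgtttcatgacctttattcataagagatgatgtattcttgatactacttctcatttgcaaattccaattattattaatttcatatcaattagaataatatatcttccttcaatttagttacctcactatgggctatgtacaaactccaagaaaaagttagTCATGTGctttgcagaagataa
Tyrp1, chr4:80752192-80752441, plus strand: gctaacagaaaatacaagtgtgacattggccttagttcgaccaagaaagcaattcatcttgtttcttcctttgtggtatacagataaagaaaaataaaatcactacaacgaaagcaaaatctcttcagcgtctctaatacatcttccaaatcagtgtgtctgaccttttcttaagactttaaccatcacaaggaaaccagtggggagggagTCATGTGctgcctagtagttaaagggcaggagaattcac
Mc1r, chr8:124133596-124133845, plus strand: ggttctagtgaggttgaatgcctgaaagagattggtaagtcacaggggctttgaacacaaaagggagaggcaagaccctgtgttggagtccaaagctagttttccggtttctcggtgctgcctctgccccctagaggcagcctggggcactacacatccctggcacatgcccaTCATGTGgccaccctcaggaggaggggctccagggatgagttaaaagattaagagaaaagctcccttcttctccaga
TCATGTG on either strand was in 1.95% of all windows (227 of 11662), in 5 of 13 of the pigment genes that fell and in 3 of 23 of those not called. CACGTG, the E-box that does not overlap it in letters, was in 7.97% of all windows, 7.04% of genes that rose and 8.75% of genes that fell. Of the pigment genes it was in 2 of 13 that fell and 4 of 23 not called.

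**Figure D2:**
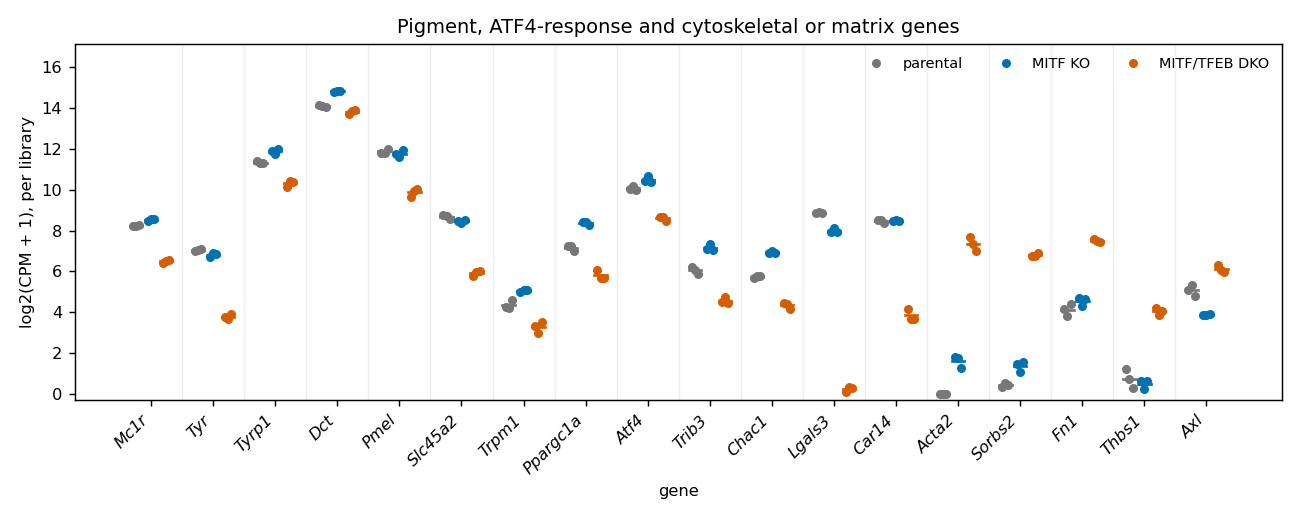
Pigment, ATF4-response, cytoskeletal and matrix genes as log2(CPM + 1), a point per library and a bar at the mean of 3 libraries, in parental, MITF KO and MITF/TFEB DKO cells. The pigment and ATF4-response genes lie lowest in the DKO, and Acta2, Sorbs2, Fn1, Thbs1 and Axl lie highest there.

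Atf4 and part of its response fell. ATF4 is translated under amino acid shortage or endoplasmic reticulum stress and raises genes of amino acid import and synthesis. Of 41 measured genes of the ATF4 and unfolded protein responses, 11 fell and none rose, with a median log2 fold change of -0.55. The falls make up 26.8% of the list, against 3.99% of all genes, and 6.91% of all genes rose. Atf4 measured 1396, 1619.9 and 1351 CPM in MITF KO libraries and 409, 402 and 351 CPM in DKO libraries (log2 fold change -1.91 ± 0.12 (SE), adjusted p = 3.5e-12), and the libraries did not overlap. Trib3, a pseudokinase induced by ATF4, measured 137, 159 and 133 CPM in MITF KO libraries and 21.7, 25.5 and 20.6 CPM in DKO libraries (log2 fold change -2.61 ± 0.12 (SE), adjusted p = 2.1e-14). Chac1, a glutathione-degrading enzyme, fell by 2.60 on the log2 scale and Mthfd2, of mitochondrial folate metabolism, by 1.68. The genes that fell also held the amino acid transporters Slc7a11, Slc7a1 and Slc3a2, of which Slc7a11 is also in the pigment list. Ddit3, which encodes the stress factor CHOP, Atf5 and the serine synthesis gene Psph fell by 1.28, 1.18 and 1.14. The chaperone genes Hspa5 and Calr had log2 fold changes of -0.27 and -0.01 and were not called.

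Genes of metabolism were called in smaller numbers, and are set beside the 6.91% of all genes that rose and the 3.99% that fell. Ppargc1a, a coactivator of mitochondrial biogenesis, measured 344, 343 and 309 CPM in MITF KO libraries and 65.7, 50.5 and 50.7 CPM in DKO libraries (log2 fold change -2.57 ± 0.12 (SE), adjusted p = 3.1e-14). Among 77 genes of the respiratory chain and ATP synthase, 5 fell (6.49%) and 2 rose (2.60%), with a median log2 fold change of -0.30. Of the 77, 48 were lower in every DKO library, compared with 28.5% of all genes. Uqcr10, a subunit of complex III, fell by 1.30 and Atp5k, of ATP synthase, by 1.33 on the log2 scale. The 2 that rose, Ndufa1 and Sdhc, spread widely within the DKO, with 69.2, 131 and 184 CPM for Ndufa1. Of 36 genes of glycolysis and the hypoxia response 2 rose (5.56%) and 5 fell (13.9%). Those that fell held Vegfa, the angiogenic growth factor, by 1.63, Pgam1 by 1.27, Pfkp by 1.19 and Hk2, a hexokinase, by 1.03. Scd1, which desaturates fatty acids, measured 20.6, 21.6 and 23.6 CPM in MITF KO libraries and 4.71, 6.42 and 5.57 CPM in DKO libraries (log2 fold change -1.81 ± 0.13 (SE), adjusted p = 1e-10). Of the other 31 genes of sterol and fatty acid synthesis, Srebf1 and Hsd17b7 rose and the rest did not pass the test.

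Of the lysosome and autophagy genes, the set that TFEB is best known for, 2 of 127 measured rose (1.57%, against 6.91% of all genes) and 4 fell (3.15%, against 3.99%). Of 48 lysosomal hydrolase genes 1 rose and 1 fell, of 36 genes of the lysosomal membrane and proton pump 2 fell, and of 43 autophagy genes 1 rose and 1 fell. The medians of these lists were -0.01, 0.01 and -0.02 on the log2 scale. Ctso, a cysteine protease, and Atg3, the enzyme that lipidates LC3, were the 2 that rose, with log2 fold changes of 2.27 and 1.03. Atp6v1d, a pump subunit, fell by 1.11. Gpnmb, a melanosomal and lysosomal glycoprotein that the pigment list also holds, measured 8013, 8189 and 8366 CPM in MITF KO libraries and 3268, 3438 and 3189 CPM in DKO libraries, and Tecpr1, which tethers autophagosomes to lysosomes, measured 563, 557 and 565 CPM in MITF KO libraries and 153, 181 and 184 CPM in DKO libraries. Hgsnat, which acetylates heparan sulfate for its breakdown, measured 409.8, 447 and 442 CPM in MITF KO libraries and 157, 159 and 131 CPM in DKO libraries, and the MITF KO stood above the 110.1, 114 and 97.9 CPM of parental cells.

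Among 29 genes of the folliculin, Rag and mTORC1 control list, 2 fell (6.90%, against 3.99% of all genes). None rose, against 6.91% of all genes. The 2 that fell were Sesn2, a leucine sensor that holds mTORC1 back, with 9.51, 13.8 and 10.6 CPM in MITF KO libraries and 6.35, 3.11 and 3.70 CPM in DKO libraries, and Deptor, an inhibitor that binds mTOR, with 373, 461 and 418 CPM in MITF KO libraries and 201, 182 and 169.6 CPM in DKO libraries. Both are inhibitors of mTORC1. Other genes of the list with that role were not called, such as Sesn1, Tsc1, Tsc2 and Ddit4. Their log2 fold changes were 0.49, -0.11, -0.15 and -0.60. Protein or activity was not measured.

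**Figure D3:**
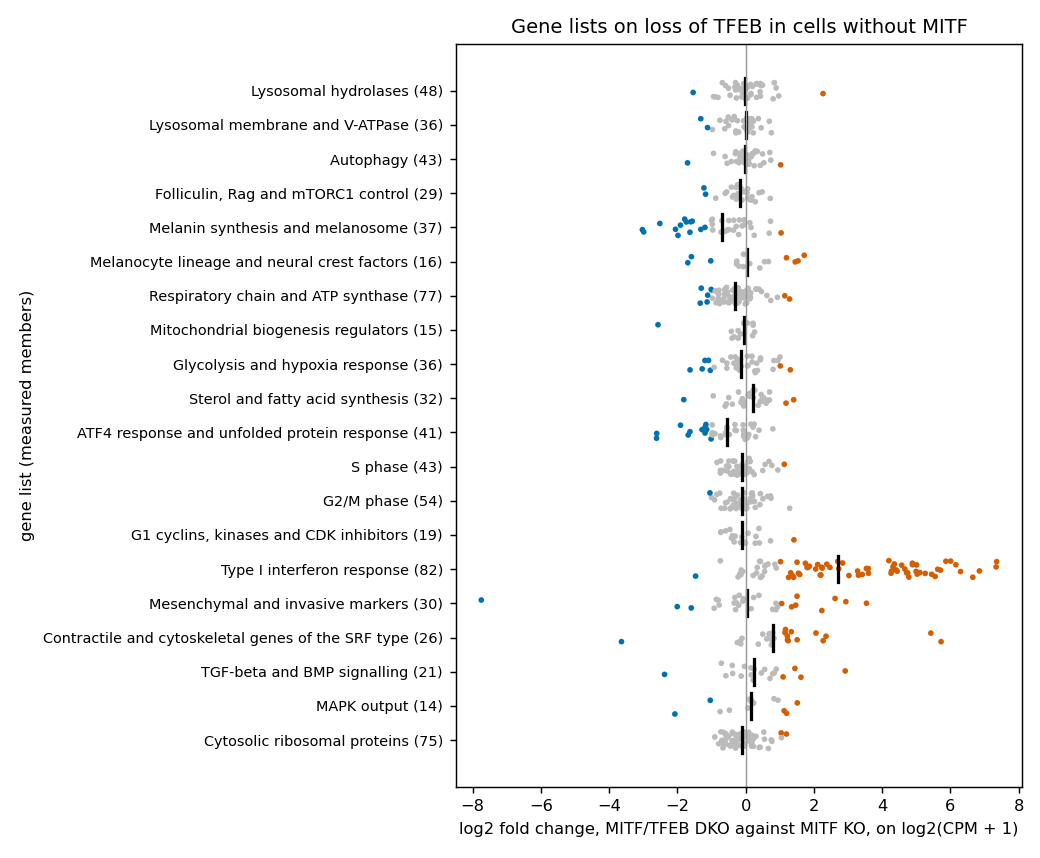
Log2 fold change of every measured member of 20 gene lists, MITF/TFEB DKO against MITF KO on log2(CPM + 1), a point per gene, with a black bar at the list's median and colour for called members (orange higher, blue lower). The interferon list stands to the right with a median of 2.72, and the pigment and ATF4 lists have medians of -0.70 and -0.55.

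Part of the contractile cytoskeleton genes rose. Serum response factor and its MRTF partners drive such genes when actin is polymerised. Of 26 measured members 12 rose (46.2%, against 6.91% of all genes) and 1 fell (3.85%, against 3.99%). The median log2 fold change was 0.82. Acta2, smooth muscle actin, measured 2.50, 2.41 and 1.42 CPM in MITF KO libraries and 205, 159 and 129 CPM in DKO libraries (log2 fold change 5.73 ± 0.17 (SE), adjusted p = 3.7e-18). Sorbs2, an adaptor at focal adhesions and stress fibres, measured 1.79, 1.08 and 1.96 CPM in MITF KO libraries and 107, 106 and 119 CPM in DKO libraries (log2 fold change 5.43 ± 0.16 (SE), adjusted p = 2.1e-18). Parental cells had no read of Acta2, and Sorbs2 stood at 0.259, 0.455 and 0.360 CPM there. Cnn2, a calponin, Zyx, a focal adhesion protein, and Flna, a crosslinker of actin, rose with log2 fold changes of 2.06, 1.51 and 1.23. Ccn1 and Ccn2, secreted matricellular proteins, rose with log2 fold changes of 2.27 and 2.36, with DKO values of 18.5, 24.9 and 33.9 and 4.78, 9.95 and 14.1 CPM that were lowest in replicate 1. The 1 that fell was Tagln2, a transgelin, which measured 33.8, 25.1 and 24.7 CPM in MITF KO libraries and 2.43, 1.60 and 0.358 CPM in DKO libraries and was without a read in parental cells. Srf, Mrtfa and Mrtfb themselves had log2 fold changes of 0.37, -0.24 and -0.15, none past the threshold.

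The mesenchymal and invasive list was split. Of 30 measured members 8 rose (26.7%, against 6.91% of all genes) and 3 fell (10.0%, against 3.99%), with a median of 0.05. Fn1, the matrix protein fibronectin, measured 25.2, 19.0 and 24.4 CPM in MITF KO libraries and 190.0, 182 and 170.2 CPM in DKO libraries (log2 fold change 2.94 ± 0.20 (SE), adjusted p = 2.1e-11). Thbs1, thrombospondin, measured 0.565, 0.161 and 0.545 CPM in MITF KO libraries and 17.4, 13.4 and 15.7 CPM in DKO libraries, and Axl, a receptor tyrosine kinase, measured 13.7, 13.7 and 13.9 CPM in MITF KO libraries and 78.2, 67.2 and 61.2 CPM in DKO libraries (log2 fold change 2.23 ± 0.12 (SE), adjusted p = 5.8e-13). Vim, an intermediate filament, rose as well, with a log2 fold change of 1.51. Lgals3, the galectin that binds β-galactosides, moved the other way and fell more than any other gene named here, from 242, 276 and 243 CPM in the MITF KO to 0.0784, 0.252 and 0.239 CPM in the DKO (log2 fold change -7.74 ± 0.11 (SE), adjusted p = 1.6e-24). Postn and Itgb3 were the other members that fell. Met did not pass the 2-fold threshold (log2 fold change -0.92), and Kit had at most 2 reads in any library of the 2 lines.

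In the signalling lists, some genes of like function moved in opposite directions. Of 21 genes of TGF-β and BMP signalling 4 rose and 1 fell (19.0% and 4.76%). Over all genes 6.91% rose and 3.99% fell, so the 1 fall is near the share of all genes. Id2 and Id3, which keep helix-loop-helix factors off DNA, went opposite ways, Id3 from 7.53, 3.29 and 6.86 to 30.8, 59.8 and 63.6 CPM and Id2 from 509.5, 539 and 481 to 98.4, 103 and 91.2 CPM. The ligands Tgfb2 and Tgfb3 rose with log2 fold changes of 1.45 and 1.62. Of 14 genes of MAPK output 3 rose and 2 fell (21.4% and 14.3%). The 2 ERK phosphatases were also opposed, with log2 fold changes of 1.52 for Dusp6 and -2.07 for Dusp4. Among 16 lineage and neural crest genes, Erbb3, a neuregulin receptor, and Nes, an intermediate filament of progenitors, rose with log2 fold changes of 1.72 and 1.54, and Sox11 and Ngfr fell by 1.59 and 1.69. Axin2, a target of WNT signalling, fell by 1.07.

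Proliferation and ribosome genes are set beside the 6.91% of all genes that rose and the 3.99% that fell. Of 43 S-phase genes 1 rose and none fell, of 54 G2/M genes none rose and 1 fell, and of 75 cytosolic ribosomal protein genes 2 rose and none fell. The medians were -0.11, -0.11 and -0.09. Those called were Mcm4, Kif20b, Rpl35a and Rpl39, and the DKO values of Rpl39 ran 247, 469.9 and 561 CPM, so its replicate 1 was far below the others. Cdkn1c, a CDK inhibitor, measured 7.96, 3.65 and 5.67 CPM in MITF KO libraries and 13.5, 20.9 and 15.6 CPM in DKO libraries and rose, and Cdk2 had a log2 fold change of -0.72, short of the threshold.

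Outside the lists, the largest falls were in genes with varied roles. Car14, a membrane carbonic anhydrase, measured 350.2, 373 and 358 CPM in MITF KO libraries and 17.1, 11.6 and 11.9 CPM in DKO libraries (log2 fold change -4.66 ± 0.12 (SE), adjusted p = 1.6e-19). Fam111a, a protease that restricts viruses and aids replication, measured 49.4, 46.2 and 54.3 CPM in MITF KO libraries and 0.627, 1.55 and 1.15 CPM in DKO libraries, and Hpgds, a prostaglandin D synthase, 53.1, 58.6 and 57.6 CPM in MITF KO libraries and 2.12, 2.31 and 2.71 CPM in DKO libraries. Eps8, which caps actin filaments, measured 209, 219.6 and 214 CPM in MITF KO libraries and 14.3, 10.7 and 12.0 CPM in DKO libraries (log2 fold change -4.02 ± 0.12 (SE), adjusted p = 4.8e-18). For these genes the MITF KO lay within 2-fold of parental cells, which had 364, 368 and 328 CPM of Car14 and 339, 339.9 and 354 CPM of Eps8. Ddah2, Ly6g5c, Dhrs2 and Nr4a3 and the transgelin Tagln2 had log2 fold changes between -3.66 and -3.13. With Lgals3 these genes make up the 10 largest falls selected, of which Lgals3 and Tagln2 belong to the lists above.

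Markers of other cell types were looked for in the same libraries. Of 6 markers of melanocytic cells all 6 were measured, with a median log2 fold change of -1.28. Every DKO library was below every MITF KO library for 5 of them, as in 28.5% of all genes. Of these 5, 3 (Pmel, Tyr and Tyrp1) were called lower. Sox10, the neural crest factor of the lineage, was the 1 that was higher, with means of 787 CPM for MITF KO and 1053 CPM for DKO libraries. None of 7 leukocyte markers is among the 12010 genes, 2 of 7 fibroblast markers are, and 1 each of 5 for endothelium (Pecam1, under 1 CPM in both lines) and for keratinocytes. Col1a1, a fibroblast marker, measured 2.45, 2.13 and 1.91 CPM in MITF KO libraries and 6.27, 7.05 and 7.84 CPM in DKO libraries, and Krt14, a keratinocyte keratin, had at most 4 reads in a MITF KO library and 8.98, 6.51 and 7.72 CPM in the DKO. The summed level of the 2 fibroblast markers ran from 32.7 to 41.5 CPM in the MITF KO libraries and from 34.4 to 45.3 CPM in the DKO. These cells are a line in culture, and the part of other cells in the contractile and matrix genes was not tested.

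Fewer genes were called on loss of TFEB where MITF was present. The TFEB KO differed from parental cells by 23 genes called higher and 71 lower (0.192% and 0.591%), and Tfeb RNA fell there too (log2 fold change -1.35). The difference between the changes was tested as an interaction, and it passed for 908 genes on the higher side (7.56%) and 573 on the lower (4.77%). Of the 830 genes that rose on loss of TFEB without MITF, 694 differed in this test, and of the 479 that fell 391. The interaction contains the change by which the 830 and 479 genes were picked, so the 694 and 391 are no separate evidence. The 2 contrasts of TFEB loss share no library. Interferon genes called in both had opposite directions, since 20 of 82 members were called lower in the TFEB KO than in parental cells and none higher, and 49 genes lower there were among those that rose without MITF (69.0% of the former and 5.90% of the latter). Ifit3 went from 769, 796 and 766 CPM in parental cells to 211, 211 and 182 CPM in the TFEB KO. Of the 37 pigment genes 0 were called lower and 1 higher in the TFEB KO by limma.

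Where TFE3 was also absent, the loss of TFEB can be read from the TKO against the MITF/TFE3 DKO, which again shares no library with the main comparison. There 683 genes were called higher and 690 lower (5.69% and 5.75%). Of the genes that rose in the MITF/TFEB DKO, 332 were called higher and 114 lower in the TKO, and of those that fell 226 were called lower and 9 higher. The 332 shared rises are 40.0% of the first list and 48.6% of the second, and the 226 shared falls are 47.2% and 32.8%. From which line the TKO was made is not given in the sources used here. In these shared changes, an effect of TFEB loss cannot be told apart from a common descent of the lines without MITF and TFEB.

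Most interferon genes moved the opposite way in the TKO against the MITF/TFE3 DKO, whereas Procr fell in both comparisons. Of 82 members, 49 were called lower and 2 higher in the TKO than in the MITF/TFE3 DKO, and the difference between the 2 losses of TFEB passed for 63 of them. Ifit3 averaged 713 ± 55.4 CPM in MITF/TFE3 DKO cells and 19.6 ± 1.69 CPM in TKO cells (SD, n = 3). By contrast 15 of 37 pigment genes were called lower in the TKO, and Tyr measured 107, 81.6 and 115 CPM in the MITF/TFE3 DKO against 8.78, 7.66 and 8.60 CPM in the TKO. Of the contractile list 16 of 26 were called higher in the TKO, with Acta2 at 0.706, 0.754 and 1.37 and 92.1, 94.0 and 70.6 CPM. Lgals3 went from 99.8, 109 and 92.4 CPM to 0, 0 and 0.0430 CPM. Over all genes the difference passed for 586 on the higher side (4.88%) and 405 on the lower (3.37%).

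**Figure D4:**
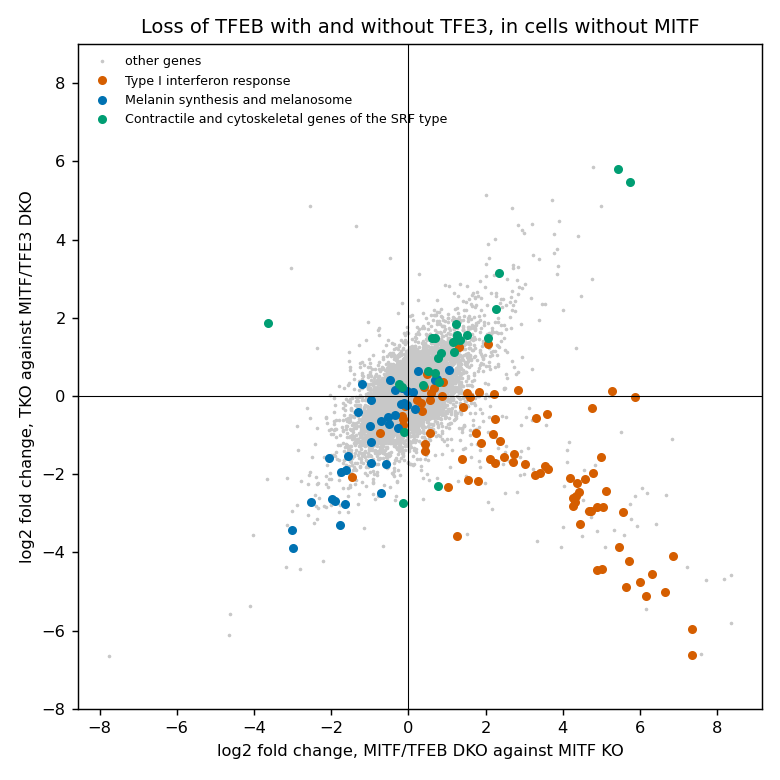
Log2 fold change of each gene on loss of TFEB in cells without MITF, with TFE3 present (x axis, MITF/TFEB DKO against MITF KO) and absent (y axis, TKO against MITF/TFE3 DKO), on log2(CPM + 1). Of the 37 pigment genes (blue) 13 were called lower on the x axis and 15 on the y axis, and of the 26 contractile genes (green) 12 and 16 were called higher. Interferon genes (orange) lie to the right, with a median of 2.72, and mostly below 0, with a median of -1.62.

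Genes that neighbour each other on a chromosome also shifted together between these lines. Of 9318 genes with a position and a mean of at least 5 CPM, 1259 (13.5%) lay where the median log2 fold change of the 100 nearest genes was at least 0.3 away from that of all these genes. The median over chromosome 19 was -0.43 and all 323 of its genes lay in such stretches, while chromosomes 1 and 16 had medians of 0.31 and 0.30. Between the TKO and the MITF/TFE3 DKO the medians of these chromosomes were -0.44, 0.33 and 0.24, and in the TFEB KO against parental cells -0.03, 0.08 and -0.03. Of the genes that fell and met the same limits, 19.3% lay in lowered stretches, compared with 6.45% of all, and of the genes that rose 15.7% lay in raised ones, compared with 7.06%. Chromosome 19 carries Fam111a and Scd1, which fell, and Acta2 and Ifit3, which rose, and chromosome 1 carries Mndal and Ifi203. With the median of the neighbours subtracted, 752 genes were called higher and 406 lower, against 830 and 479 in the main comparison. This setting covers only genes with a position. Under it 61 interferon genes were called higher, against 62, and 15 pigment genes lower, against 13. The contractile genes called higher numbered 10, against 12, and 12 named genes lost their call. DNA copy number was not measured, and its part in these shifts was not tested.

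**Figure D5:**
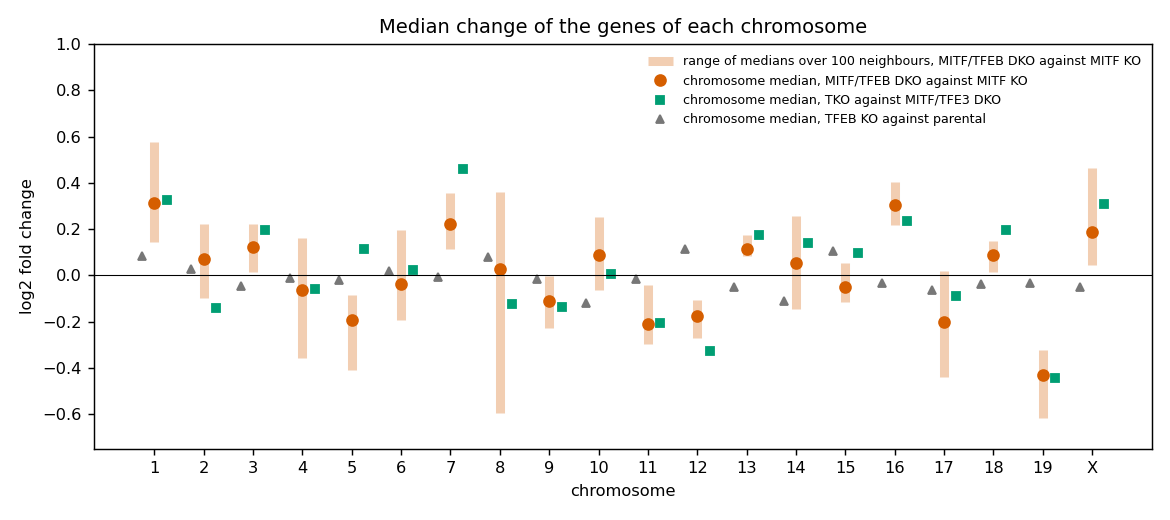
Median log2 fold change of the genes of each chromosome (genes with a mean of at least 5 CPM) for the DKO against the MITF KO (circles, with the range of medians over 100 neighbouring genes as a band), in the TKO against the MITF/TFE3 DKO (squares) and in the TFEB KO against parental cells (triangles). Chromosome 19 lies lowest at -0.43.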

How the data were processed

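The authors trimmed the 3′ reads (QuantSeq) with Trim Galore 0.6.5 and cutadapt 2.10, mapped them with STAR 2.7.8a to mm39 and deposited 1 table of edgeR-normalised CPM per library, a signal whose sums ran from 933263 to 1081081. The counting tool, annotation and low-count filter are not given in the sources used here. Columns of other samples numbered 0, and no mitochondrial gene is in the table. The values were expected to be CPM summing to the same total, and the planned limma test was kept.

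Whole reads were recovered from the value steps (99.99% of values whole within 0.05 read). limma 3.58.1 (R 4.3.3) was fitted to log2(CPM + 1) with all 24 libraries, 16 residual degrees of freedom and a trended prior variance, and p-values were adjusted by the Benjamini-Hochberg method. Fold changes on this scale understate changes of low genes. The alternatives were edgeR 4.0.16 (quasi-likelihood, on reads), other pseudocounts, filters and scalings, the replicate block, each library left out, and the median of 100 neighbouring genes subtracted. The fits were tested on simulated data. Tables and figures used Python 3.11.15, numpy 2.4.6, pandas 2.3.3 and matplotlib 3.10.9. Positions came from GENCODE vM39 on GRCm39 and matched 11662 genes.

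Named genes were the MITF/TFE family; the 10 largest rises and 10 largest falls with an adjusted p under 0.05, a mean of at least 10 CPM in the higher line, libraries that did not overlap and an approved name; the 4 called members with the largest change in each list; the 4 most positive and 4 most negative differences in each interaction; and 23 genes set by name. Interferon pathway genes were added by role, and other list members singled out, after their values were seen. The members and lists were chosen with earlier results of these data known. A few of the selected genes are left out of the text. Values after ± are SEs of the limma fit or SDs over 3 libraries, as marked, and measure the spread between libraries. Read limits cover counting error only.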

Additional observations from a re-analysis of the deposited data

Results flagged for a closer look

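The change on loss of TFEB differed between cells without and with MITF, by the interaction in limma (n = 3 libraries per line), most for these named genes: Mndal 9.50, Ifi203 9.49 and Iigp1 9.27 on the log2 scale were higher without MITF, and Lgals3 -7.22, Car14 -4.94, Fam111a -4.49 and Eps8 -4.01 were lower. Adjusted p was at most 7.3e-15 for these 7 (limma). Every DKO library lay on the stated side of every MITF KO library for each of them. They were picked among genes called between these 2 lines, where 825 of 830 rises and all 479 falls separate in this way. The separation is thus no further evidence.

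Between MITF KO cells with and without TFE3 the change differed most, again by the interaction in limma, for Mndal 14.18, Iigp1 14.18 and Usp18 13.33, which were higher with TFE3, and for Rny3 -7.38, Gm24105 -6.33, Rny1 -5.71 and Tagln2 -5.51, which were lower. Fitted values for Iigp1, which had few reads in the MITF KO and the TKO, depend on the pseudocount. The same holds for Mndal, Usp18 and Ifi203, whose CPM in the MITF KO lay near or below the pseudocount. Ifi44 was also selected in both and is given by level, because it had no read in the MITF KO, with 148, 169.6 and 167 CPM in DKO, 96.6, 111 and 105 CPM in MITF/TFE3 DKO and 0.219, 0 and 0 CPM in TKO libraries. Rny1 and Rny3 are Y RNAs, small non-coding RNAs with near-identical copies in the genome, so their counts are uncertain. Rny3 measured 117, 119 and 102 CPM in MITF KO libraries and 18.9, 19.6 and 17.2 CPM in DKO libraries, against 6.48, 9.28 and 7.36 CPM in the libraries of the MITF/TFE3 DKO and 276, 239 and 228 CPM in TKO libraries.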

How the results depend on the processing

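The alternatives were run for the 95 genes that the naming rule selects, not for those added later. None of them changed direction past the threshold under any alternative run, and 71 kept their side of it throughout. Genes called higher in the MITF/TFEB DKO numbered 455 with a pseudocount of 5 and 531 among genes with a mean of at least 5 CPM, and genes called lower 737 by edgeR and 230 with a pseudocount of 5. The differences between cells without and with MITF numbered 763 and 983 under the same pseudocount and filter, against 1481, and those with and without TFE3 460 and 651, against 991. The higher pseudocount shrinks the changes of low genes, the filter tests fewer genes, and the cause of the edgeR count was not tested. With quantile normalization the share of calls that were higher was 53.7% in the main comparison against 63.4%, and in the interactions 50.0% against 61.3% and 46.6% against 59.1%. Leaving out 1 library gave 787 to 961 genes higher, 466 to 541 lower, and 1400 to 1762 and 927 to 1213 differences, and 61 to 62 interferon genes higher. It took the call from 12 named genes, most of them (Rpl35a, Rpl39, Ndufa1, Sdhc, Mcm4, Srebf1, Eno1) ones that spread widely within the DKO. Same-numbered libraries of the 2 lines deviated together with r = -0.34, -0.27 and 0.31, and 1 DKO library was closest to its own number, so the numbers were not taken to pair them. With the number as a replicate block, 832 genes were higher, 479 lower, and 1486 and 997 differed.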
